A study of Mus musculus with 6 samples.

Results

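Imprinted genes are genes that are usually read from 1 of the 2 parental copies, and 50 of them were followed here in ependymal cells, the ciliated cells that line the brain ventricles. The members were taken from a fixed list by gene symbol, and all 50 were found among the 47643 genes of the deposited files. The cells came from the adult ventricular-subventricular zone of mice and were sorted by GFP 2 days after tamoxifen. In 3 samples (cKO) tamoxifen had deleted Ccn1, which encodes a secreted matricellular protein, and 3 samples were controls (control). Mice of both groups had received tamoxifen, and the GFP gate was set by hand against wild-type cells. The labels do not name the recombinase, its promoter, the control's alleles, the strain or the exact age. They also do not say whether a sample is 1 animal or a pool, so p-values measure the spread between these samples, which may be technical. The labels describe the RNA as cytoplasmic.

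An imprint is set by DNA methylation in the egg or the sperm and is then kept through cell division, so that a gene is read from the paternal copy (such as Nnat, Peg3 and Snrpn) or from the maternal copy (such as H19, Meg3 and Cdkn1c). Imprinted genes lie in clusters, often with a long noncoding RNA that silences its neighbours on the same chromosome. In the brain several act in growth, metabolism and neural development, and for some the imprint holds only in neurons, in certain isoforms or in the placenta. The usual class of each gene is textbook background from other tissues. The deposited values do not separate the parental copies, so imprinting itself was not measured.

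The libraries held 13401499 to 15689579 estimated counts. Ccn1 stood at 18.7, 11.6 and 23.7 TPM in the cKO and at 63.6, 98.7 and 93.5 TPM in the controls, where TPM is a transcript's share of the library after correction for length. All 6 libraries went with their labels, with 21.4% of the control CPM left in the cKO. Even so, Ccn1 did not pass over all genes in edgeR (adjusted p = 0.99999), and of the tests run only DESeq2 called it. The 10 ependymal markers were all detected and summed to 21511 to 26103 TPM in the 6 libraries. Of other cells of the region, the choroid plexus list of 8 genes summed to 311 to 949 TPM in the cKO and 528 to 718 TPM in the controls. In that list Folr1 stood at 297 to 558 TPM, Ttr at 0.25 to 520 TPM and Kcnj13 at 0 to 46.8 TPM, and Aqp1 and Slc4a5 were at 0 in every library. The meninges and fibroblast list of 7 genes summed to 3.65 to 7.23 TPM in the cKO and 1.68 to 2.66 TPM in the controls. Its Col1a2 stood at 3.77, 4.18 and 3.62 TPM against 2.14, 1.65 and 2.62 TPM, with separate groups, and Col3a1, Lum and Slc47a1 were at 0. The neuron list summed to 210 to 440 TPM, nearly all of it Ppp1r1b, with Rbfox3 and Slc17a7 at 0. The endothelial list summed to at most 0.014 TPM. The astrocyte and neural stem cell list summed to 23397.5 to 28094.2 TPM, as high as the ependymal list. The mural list summed to 215 to 400 TPM and the oligodendrocyte lineage list to 29.1 to 110 TPM. Microglia genes summed to 6.48 to 20.8 TPM, and neuroblast and transit amplifying genes to 7.05 to 13.3 TPM. The part of other cells in these sums was not tested. Fewer cells of a type and less RNA per cell cannot be told apart in such samples.

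The starts of 8 of these genes, given as examples, show how differently the promoters of imprinted genes are built. Nnat and Cd81 are the 2 most abundant members, Blcap and Herc3 are host genes with another imprinted gene inside them, and Nap1l5 is such an inner gene. Meg3, Airn and Herc3 had separate values in the 2 genotypes, as did Peg3 and Kcnq1ot1, which are not printed. Begain was not detected. Each line gives the 250 bases before a RefSeq start on GRCm38.p6, 5′ to 3′ on the gene's strand. Every CG dinucleotide, the letters that can carry methylation, is in capitals. The GENCODE M21 annotation starts Herc3 at 58831465 and Blcap (minus strand) at 157571274. By that annotation both printed stretches lie inside the gene, not before its start.
Nnat, chr2:157559828-157560077, plus strand: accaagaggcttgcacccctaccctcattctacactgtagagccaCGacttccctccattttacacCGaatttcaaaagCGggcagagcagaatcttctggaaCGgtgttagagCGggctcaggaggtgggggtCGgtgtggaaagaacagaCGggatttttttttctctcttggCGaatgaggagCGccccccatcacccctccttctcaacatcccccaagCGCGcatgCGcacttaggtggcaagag
Blcap, chr2:157566362-157566611, minus strand: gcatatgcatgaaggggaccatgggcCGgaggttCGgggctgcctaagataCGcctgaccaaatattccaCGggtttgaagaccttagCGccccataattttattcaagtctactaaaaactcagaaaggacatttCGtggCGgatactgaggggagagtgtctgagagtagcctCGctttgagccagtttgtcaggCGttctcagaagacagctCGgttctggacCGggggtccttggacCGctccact
Nap1l5, chr6:58907127-58907376, minus strand: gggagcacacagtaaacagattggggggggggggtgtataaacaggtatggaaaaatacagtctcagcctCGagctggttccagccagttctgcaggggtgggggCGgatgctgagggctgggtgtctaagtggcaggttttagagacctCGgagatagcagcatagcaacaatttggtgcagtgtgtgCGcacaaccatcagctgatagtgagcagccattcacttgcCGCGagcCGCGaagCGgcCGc
Herc3, chr6:58833450-58833699, plus strand: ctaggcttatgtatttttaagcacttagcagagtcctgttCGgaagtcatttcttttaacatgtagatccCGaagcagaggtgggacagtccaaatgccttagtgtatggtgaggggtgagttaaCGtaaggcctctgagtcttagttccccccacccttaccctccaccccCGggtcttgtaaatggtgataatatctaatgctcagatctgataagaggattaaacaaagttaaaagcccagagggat
Meg3, chr12:109540746-109540995, plus strand: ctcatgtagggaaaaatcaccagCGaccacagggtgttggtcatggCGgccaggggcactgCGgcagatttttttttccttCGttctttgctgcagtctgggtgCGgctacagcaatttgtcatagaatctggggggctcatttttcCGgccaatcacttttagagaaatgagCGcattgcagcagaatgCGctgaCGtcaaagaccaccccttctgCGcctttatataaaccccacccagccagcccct
Airn, chr17:12741061-12741310, plus strand: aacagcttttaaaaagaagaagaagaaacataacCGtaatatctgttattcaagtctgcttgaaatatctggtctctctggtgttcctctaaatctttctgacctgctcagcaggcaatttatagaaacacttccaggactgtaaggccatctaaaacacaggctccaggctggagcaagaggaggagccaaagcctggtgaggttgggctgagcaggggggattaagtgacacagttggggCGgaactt
Cd81, chr7:143052500-143052749, plus strand: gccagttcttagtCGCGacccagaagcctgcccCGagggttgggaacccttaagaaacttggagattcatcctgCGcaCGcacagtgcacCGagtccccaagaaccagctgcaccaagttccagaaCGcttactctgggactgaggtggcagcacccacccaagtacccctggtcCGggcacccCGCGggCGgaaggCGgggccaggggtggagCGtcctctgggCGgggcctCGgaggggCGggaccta
Begain, chr12:109068243-109068492, minus strand: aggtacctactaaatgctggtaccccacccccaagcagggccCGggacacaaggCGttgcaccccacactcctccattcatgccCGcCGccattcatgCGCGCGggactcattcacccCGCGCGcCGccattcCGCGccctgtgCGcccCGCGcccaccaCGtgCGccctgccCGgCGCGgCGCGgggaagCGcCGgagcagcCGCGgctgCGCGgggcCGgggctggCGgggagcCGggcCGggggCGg

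The stretches printed for the more abundant Cd81, Nnat, Blcap and Nap1l5 held 16, 12, 12 and 10 CG dinucleotides. Those printed for the less abundant Meg3, Herc3 and Airn held 10, 4 and 2. Begain, at 0 in all 6 libraries, had the most, with 34. Of the 50 members, 40 had at least 1 RefSeq window of 300 bases (250 before and 50 after a start), 63 windows in all. A window was called CpG rich where at least 50% of its bases were G or C and the CG count was at least 0.6 of that expected from the C and G content. By that rule 34 of 63 member windows (54.0%) were CpG rich, beside 33.5% of the 32851 windows of all genes. Counted by gene, 25 of the 40 members (62.5%) and 36.0% of all 27025 genes had a CpG-rich window. Among the 10 members with a window and at least 10 TPM, 9 had one, Snrpn being the exception. Of the 14 members at 1 to under 10 TPM 8 had one, and of the 16 under 1 TPM also 8. By window the shares of these classes were 76.5%, 36.4% and 54.2%, with no steady rise with level. The motif TGCCGC, the letters that the imprint-keeping protein ZFP57 reads when they are methylated, was searched on both strands. It was present in 15 of 63 member windows (23.8%) and in 11.6% of all windows. Some windows overlap and are not separate counts: Snrpn and Snurf share the same window with the motif, and Mest has overlapping ones. The motif itself holds a CG, and member windows were more often CpG rich. The part of base content in the motif share was not tested. All of these are counts of letters and say nothing about methylation or binding in these cells.

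The imprinted genes spanned the whole range of expression, from Nnat at the top of the transcriptome to 8 genes without a count. By mean TPM over the 6 libraries, 6 members were strong (at least 100 TPM), 7 moderate (10 to under 100), 16 low (1 to under 10), 13 at a trace (under 1) and 8 at 0. In all, 29 of 50 reached 1 TPM. The 6 strong members gave 98.4% of the summed TPM of the list. A count was present in all 6 libraries for 22 members, in some of them for 20 and in none for 8.

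**Figure D1:**
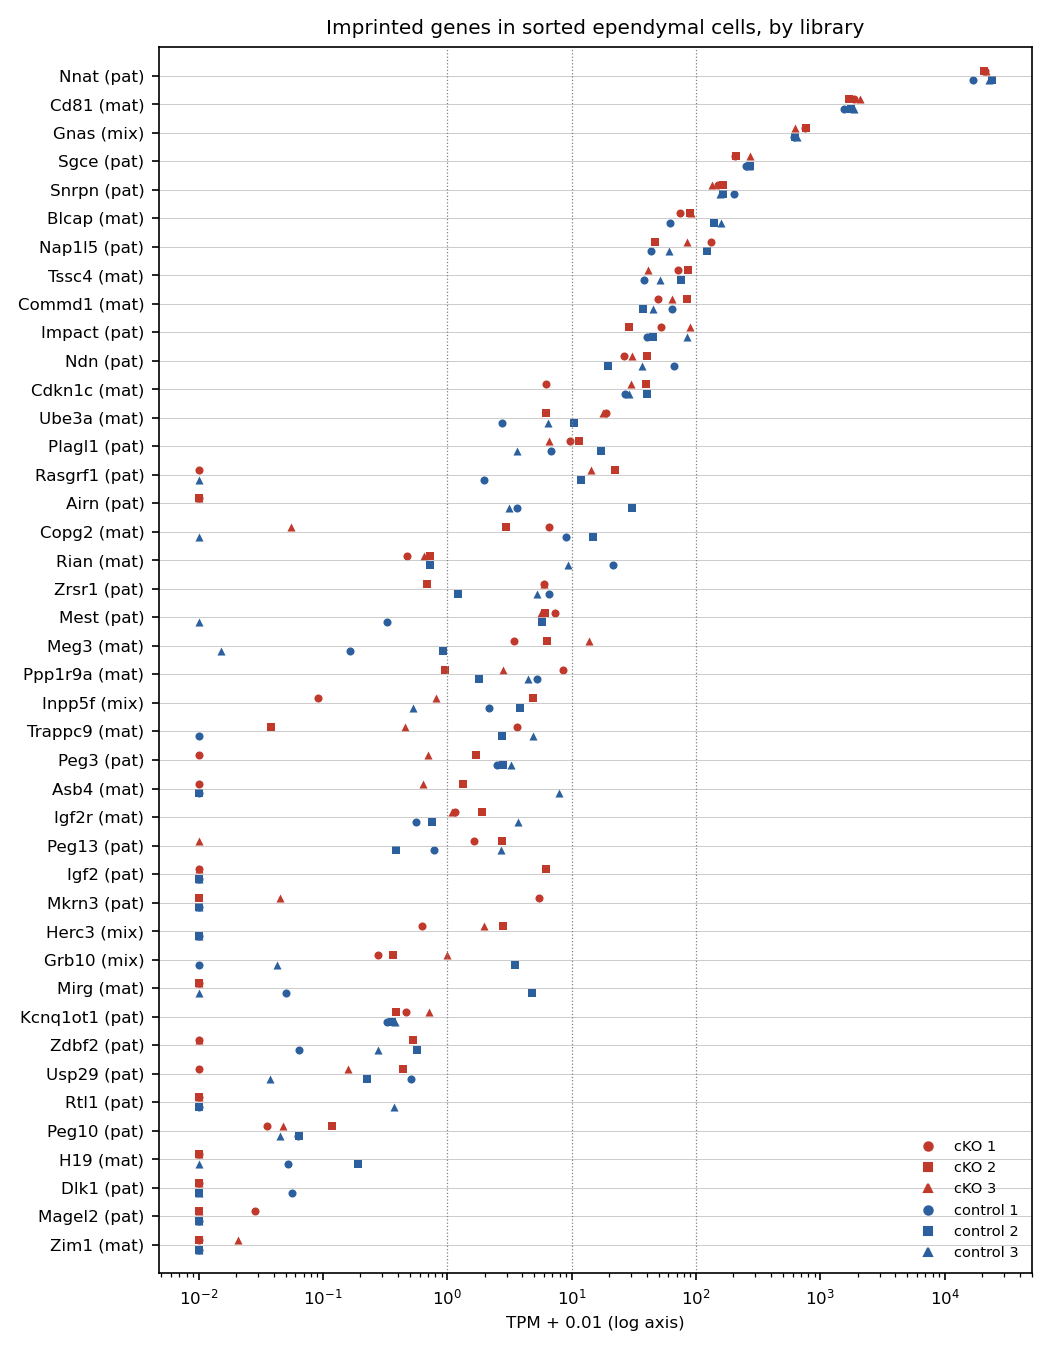
TPM (with 0.01 added, log axis) of the 42 imprinted genes with a count, 1 point per library, cKO in red above control in blue, ordered by mean level, with the usual class in parentheses (pat, paternal; mat, maternal; mix, mixed). The dotted lines stand at 1, 10 and 100 TPM, and below about 10 TPM many genes have libraries at or near 0.

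Nnat encodes neuronatin, a small membrane protein of the endoplasmic reticulum, and is usually read from the paternal copy. It stood at 20999.9, 20845.4 and 21601.8 TPM in the cKO and at 16849.5, 24139.8 and 22581.8 TPM in the controls. The control libraries hold both the lowest and the highest value, so the cKO values lie inside the control range. Nnat had a rank of 3 to 5 among all genes by TPM in each library, made up 84.8% to 87.6% of the members' summed TPM, and was 11.7-fold above the next member, Cd81. The log2 difference between cKO and control was -0.01 ± 0.09 (SE), with a 95% interval from -0.23 to 0.21 (edgeR, adjusted p = 0.99999).

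Cd81, a tetraspanin of the cell surface that is imprinted in the placenta, stood at 1847, 1713 and 2100.5 TPM in the cKO and at 1554, 1762 and 1853 TPM in the controls. The groups overlapped (log2 difference 0.14 ± 0.13, 95% interval -0.16 to 0.43). Gnas, which encodes the stimulatory G protein alpha subunit and has isoforms of opposite parental class, stood at 749, 760 and 628 TPM in the cKO and at 610, 625 and 649 TPM in the controls. The cKO 3 library lay among the controls and the other cKO libraries above them (0.18 ± 0.13, interval -0.13 to 0.48). The gene-level value adds up the Gnas isoforms, so their parental classes are not separated.

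Sgce, the gene of epsilon-sarcoglycan, a membrane protein read from the paternal copy, stood at 204, 210 and 271 TPM in the cKO and at 252, 274 and 269 TPM in the controls. The cKO 1 and cKO 2 values lay below all controls and cKO 3 lay among them (-0.20 ± 0.19, interval -0.64 to 0.24). Snrpn, the gene of the spliceosomal protein SmN in the Prader-Willi region, stood at 150.4, 164 and 133 TPM in the cKO and at 204, 166 and 155 TPM in the controls, again with overlap (-0.25 ± 0.21, interval -0.74 to 0.25). Nnat, Cd81, Gnas, Sgce and Snrpn were the 5 members whose interval lay within a 2-fold change in either direction. For these 5 the coefficient of variation of TPM over the 6 libraries was 9.88% to 14.5%. Blcap, a small membrane protein gene whose maternal bias is known from brain, was more variable at 74.0, 89.5 and 91.5 TPM against 62.0, 140 and 158 TPM (-0.47 ± 0.32, interval -1.21 to 0.28).

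The 7 moderate members all had overlapping groups. Nap1l5, a gene of the nucleosome assembly protein family read from the paternal copy, stood at 131, 47.0 and 84.7 TPM in the cKO and at 43.8, 122.7 and 60.9 TPM in the controls. Tssc4, whose protein takes part in assembly of a spliceosome subunit, stood at 72.0, 86.9 and 41.3 against 38.5, 75.2 and 51.6 TPM. Commd1, a gene of copper handling and NF-kB control, stood at 49.7, 84.6 and 63.9 against 64.5, 37.7 and 45.2 TPM. In all 3 genes the libraries of the 2 genotypes overlapped.

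Impact, an inhibitor of the GCN2 stress kinase pathway read from the paternal copy, stood at 51.8, 29.0 and 88.6 TPM in the cKO and at 40.5, 44.9 and 84.1 TPM in the controls. Ndn, the gene of necdin, a MAGE family protein that restrains growth, stood at 26.1, 40.4 and 30.6 against 66.0, 19.5 and 37.0 TPM. Cdkn1c, which encodes the cell cycle inhibitor p57 and is read from the maternal copy, stood at 6.20, 39.9 and 29.7 against 26.8, 40.3 and 29.0 TPM. The low cKO 1 value decided the sign of the Cdkn1c difference, which was -0.35 on the log2 scale with it and 0.11 without it. Ube3a, the ubiquitin ligase gene whose paternal copy is silent in neurons, stood at 18.8, 6.18 and 17.8 against 2.72, 10.4 and 6.38 TPM (0.79 ± 0.62, interval -0.64 to 2.23).

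The 16 low members were patchy. In 12 of them at least 1 library had 3 counts or fewer. Copg2, a coat protein complex gene next to Mest, had 307, 129 and 2 counts in the cKO and 501, 652 and 0 in the controls. Rasgrf1, a Ras exchange factor gene of neurons, had 0, 150 and 106 against 133, 89 and 0 counts. Both genes swung from 0 to over 100 counts within a genotype, and this was common in these libraries: 14 of the 32 tested members (43.8%) and 36.9% of the 11574 genes tested had a library at 3 counts or fewer. Plagl1, a zinc finger transcription factor gene known to regulate other imprinted genes, was steadier at 605, 653 and 387 against 513, 1018 and 240 counts.

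Igf2, the fetal growth factor gene, was present in 1 library, with 84 counts (6.19 TPM) in cKO 2 and 0 in the other 5. In adult brain Igf2 is known from choroid plexus and meninges. The same library had the highest level of Ttr, a choroid plexus gene, with Ttr at 520 TPM in cKO 2 against 290, 0.25, 5.29, 147 and 148 TPM in cKO 1, cKO 3 and controls 1 to 3, and of Col1a2, a fibroblast gene, at 4.18 TPM. Of the other choroid plexus markers, Kl was highest there too, at 2.84 TPM, and Prlr was lowest, at 0.0088 TPM. Folr1, Kcnj13 and Clic6 stood inside their ranges, at 375, 42.9 and 7.84 TPM, and Aqp1 and Slc4a5 were at 0. The meninges and fibroblast list summed to 4.22 TPM in cKO 2 and was highest in cKO 1, at 7.23 TPM. Its Col3a1, Lum and Slc47a1 were at 0. The part of other cells in the Igf2 value was not tested. Mkrn3, a ubiquitin ligase gene of the Prader-Willi region, had 156 counts in cKO 1, 1 in cKO 3 and 0 in the rest.

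The members without a count in any library were Snurf, Atp10a, Kcnq1, Phlda2, Ddc, Calcr, Kcnk9 and Begain. A count of 0 allows up to 3 counts, which is 0.191 to 0.224 CPM by library total, for counting error only. Zim1, Magel2 and Dlk1 had a single count in 1 library each, and H19, the maternal noncoding RNA beside Igf2, had 1 and 2 counts in controls 1 and 2. Dlk1, a Notch-like ligand gene of niche cells and progenitors, thus had 1 count among all 6 libraries. The 0 of Snurf is a special case: it is encoded on the same transcripts as Snrpn, 216 exon bases of the 2 genes overlap, and the counting tool can give such shared reads to Snrpn.

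By usual class, 14 of 23 paternal, 13 of 21 maternal and 2 of 6 mixed members reached 1 TPM. Paternal members summed to 21742 ± 447 TPM in the cKO and 21841 ± 3865 TPM in the controls (SD, n = 3 each), of which all but 593 ± 49.9 and 651 ± 40.9 TPM was Nnat. Maternal members summed to 2163 ± 176 and 2017 ± 205 TPM, of which all but 276 ± 39.9 and 294 ± 54.7 TPM was Cd81. Mixed members summed to 716 ± 73.6 and 632 ± 18.7 TPM, nearly all of it Gnas. The 10 maternal members whose imprint is known only from some tissues, isoforms or as a bias held 8 of the 13 that reached 1 TPM and summed to 1736 to 2318 TPM by library. The 11 others (Zim1, H19, Igf2r, Cdkn1c, Kcnq1, Phlda2, Asb4, Calcr, Meg3, Rian and Mirg) summed to 11.3 to 50.1 TPM. The genotypes overlapped in the paternal, maternal and mixed sums, and sums over chosen genes were not tested.

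The members lie in 19 groups on the chromosomes when genes within 1 Mb are joined (GENCODE M21 on GRCm38). The levels of close neighbours differed widely. On chromosome 7, the 8 members from 142575529 to 143503150 included Cd81, Tssc4 and Cdkn1c, whose values are given above, together with Kcnq1 and Phlda2 at 0 and H19 at 3 counts in all. On chromosome 12, the 6 members from 109032187 to 109749460, the Dlk1-Meg3 cluster, summed to 3.91 to 21.6 TPM by library. The noncoding RNAs Meg3 and Rian made up most of it in 5 libraries, and in control 2 the noncoding RNA Mirg was highest, at 4.77 TPM. Outside control 1, Rian rested on 15 counts or fewer per library. Its 9.34 TPM in control 3 came from 15 counts. On chromosome 7 again, Peg3, Usp29 and Zim1 (6671269 to 6967219) summed to at most 3.25 TPM. In contrast, Nnat and Blcap on chromosome 2 (157556362 to 157571274) summed to 16911.5 to 24279.6 TPM.

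Sgce and Peg10 start 99 bases apart on opposite strands of chromosome 6 and are both usually read from the paternal copy. Sgce (4674350 to 4747207, minus strand) stood at 247 TPM on average and Peg10 (4747306 to 4760517, plus strand), a gene derived from a retrotransposon, at 0.052 TPM, with 2, 8 and 3 counts in the cKO and 5, 4 and 3 in the controls. Sgce was higher in 6 of 6 libraries, 4744-fold by the means. Peg3 and Usp29 also start close together, 147 bases apart, and there both were low, with Peg3, a zinc finger gene, above Usp29 in 5 libraries and both at 0 in cKO 1.

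Nested pairs differed in which partner was higher. Nnat lies within an intron of Blcap on the other strand, and was 206.5-fold above it by mean TPM. Nap1l5 (58905233 to 58907076) lies within an intron of Herc3 on chromosome 6, on the other strand, and was 91.4-fold above it. In both pairs the inner gene was higher in 6 of 6 libraries. Zrsr1, a splicing factor-like gene inside Commd1, was the reverse, at 4.26 TPM against 57.6 TPM and lower in 6 of 6 libraries, and 412 of its exon bases overlap those of Commd1. Peg13, a noncoding RNA inside Trappc9, and Trappc9 itself stood at 1.37 and 1.95 TPM, with Peg13 higher in 2 libraries and Trappc9 in 4. Mest and Copg2, which overlap at their ends by 912 exon bases, stood at 4.19 and 5.60 TPM. No label says whether the counting used strand, so reads from overlapping exons on opposite strands cannot be told apart.

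**Figure D2:**
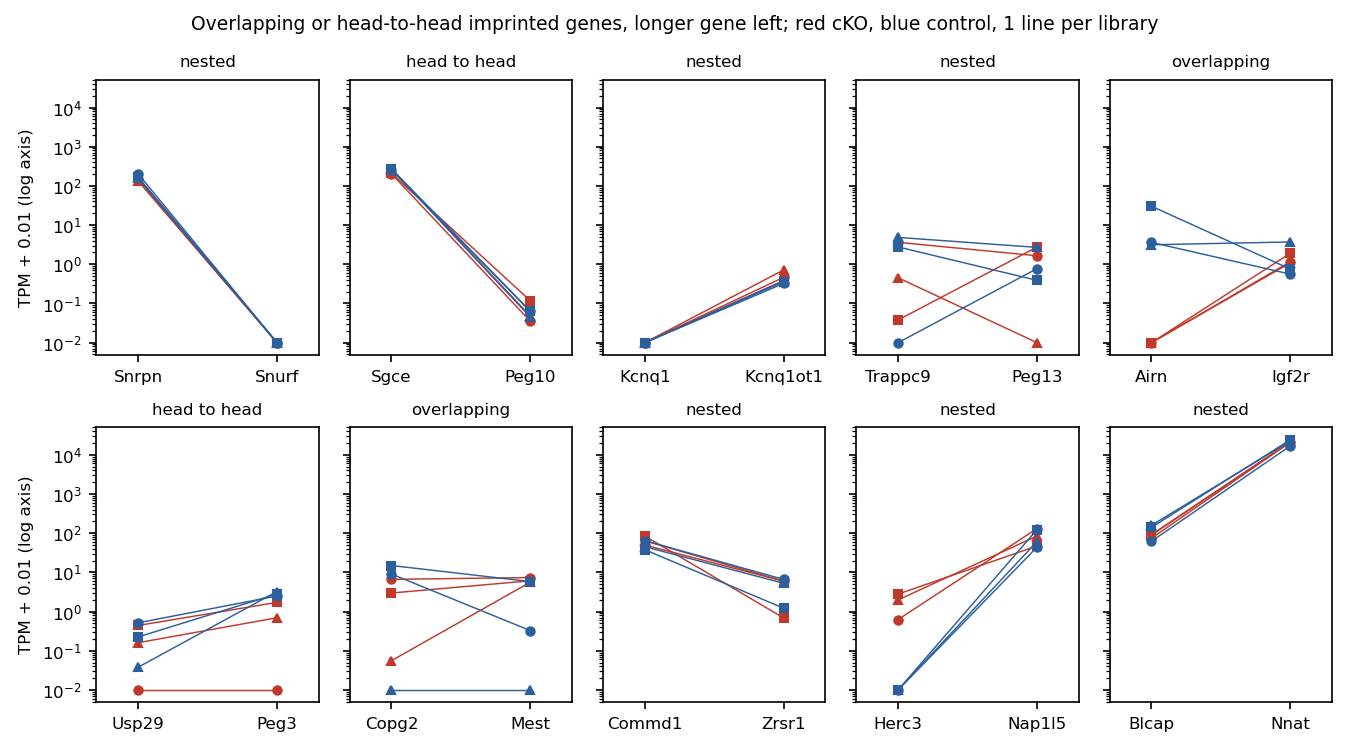
TPM (with 0.01 added, log axis) of the 10 pairs of imprinted genes that overlap or start within 1 kb of each other on opposite strands, 1 line per library. Nnat and Nap1l5 lie far above their hosts Blcap and Herc3 in all 6 libraries, and Peg10 lies far below Sgce.

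The comparison of genotypes asked whether imprinted genes differed between ependymal cells with and without Ccn1. By the main test no imprinted gene passed: edgeR called 0 of the 32 members with enough counts for the test, beside 0 of 11574 genes (0.00% called) at an adjusted p of 0.05. At an unadjusted p under 0.05 there were 2 members, Airn and Herc3, beside 2.75% of all genes tested. limma-voom also called 0 members, with 3 at an unadjusted p under 0.05 (5.25% of all genes). DESeq2 called 3 of the 31 members to which it gave an adjusted p, beside 1.63% of all genes. The fitted difference was positive (cKO above control) for 13 of the 32 members and negative for 19, around a median of -0.073 on the log2 scale, and of all genes tested 50.3% were higher, with a median of 0.0044. The other 18 members had too few counts, 8 of them none.

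**Figure D3:**
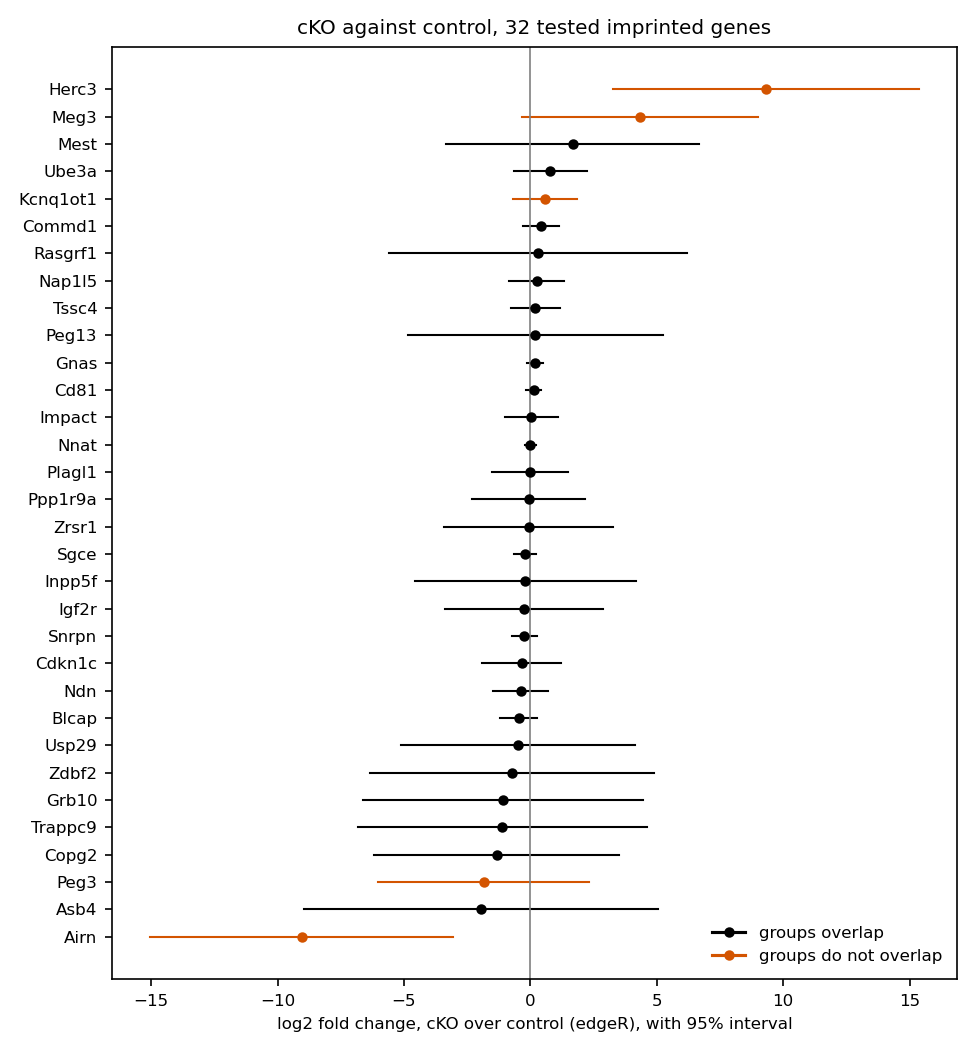
Log2 fold change of cKO over control with its 95% interval (edgeR) for the 32 tested imprinted genes, ordered by size, with orange for genes whose 3 cKO values lie all above or all below the 3 control values. The intervals of Nnat, Gnas and Cd81 are narrow around 0, and those of low genes span many doublings; for Airn and Herc3, at 0 in 1 genotype, the fitted value depends on the small count that edgeR adds.

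In 5 of the 32 tested members the 3 cKO values lay all above (Herc3, Meg3, Kcnq1ot1) or all below (Airn, Peg3) the 3 control values. Of all genes tested, 4.99% lay apart in the higher direction, 4.62% in the lower and 9.62% in either. These levels are counts scaled to library size with edgeR's TMM method (CPM). Leaving out any 1 library gave 6 to 8 such members, since 2 values are more easily apart from 3. Airn and Herc3 passed the filter on low counts only through the genotype in which they were present, and Meg3 passed it mainly through the cKO. The separation of Airn, Herc3 and Meg3 thus partly follows from the filter.

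Airn, the noncoding RNA that silences Igf2r on the paternal copy, had 0, 0 and 0 counts in the cKO and 51, 125 and 22 in the controls, or 3.37, 9.12 and 1.41 CPM. It was thus present in all controls and in no cKO library. The control mean was 21.03-fold above a floor of 3 counts per cKO library, a bound that allows for counting error only. Without control 2 this bound was 10.85-fold. The edgeR interval of the log2 difference, which includes the spread between libraries, ran from -15.04 to -3.05. With the cKO at 0, the fitted difference and this interval depend on the small count that edgeR adds. The edgeR p was 0.0103 (adjusted p = 0.99999), and the DESeq2 adjusted p was 0.0250. The DESeq2 call was lost without cKO 1 (adjusted p = 0.0557), control 1 (0.0822), control 2 (0.490) or control 3 (0.112). Igf2r, the receptor that takes up IGF2 for degradation, stood at 9.06, 14.4 and 8.67 CPM in the cKO and at 4.70, 5.55 and 27.7 CPM in the controls, with overlap (log2 difference -0.24 ± 1.36 (SE), edgeR). Airn lies on chromosome 17 from 12741311 to 12860136 and overlaps Igf2r by 28354 bases on the other strand, with no exon base in common.

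Herc3, a ubiquitin ligase gene around Nap1l5, was the reverse, with 26, 118 and 83 counts in the cKO (1.88, 8.78 and 6.10 CPM) and 0 in each control. All 3 cKO libraries lay above all controls. The cKO mean was 27.5-fold above the same floor in the controls, again for counting error only, and 19.66-fold without cKO 2. The edgeR interval of the log2 difference ran from 3.27 to 15.36. With the controls at 0, it too depends on the small count that edgeR adds. The edgeR p was 0.00928 (adjusted p = 0.99999) and the DESeq2 adjusted p was 0.00562, and this call was lost without cKO 1 (0.0738), cKO 2 (0.431) or cKO 3 (0.275). For Nap1l5, inside it, the groups overlapped, with a log2 difference of 0.24 ± 0.48 (SE).

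Meg3, a maternal noncoding RNA of the Dlk1-Meg3 cluster, had 73, 131 and 287 counts in the cKO and 5, 19 and 1 in the controls. That is 5.29, 9.74 and 21.1 CPM against 0.33, 1.39 and 0.064 CPM, every cKO library above every control. The log2 difference was 4.32 ± 2.03 (SE), with an edgeR p of 0.0653 (adjusted p = 0.99999). It was 3.64 without cKO 3 and 5.87 without control 2. DESeq2 gave an adjusted p of 0.0469, which was lost without cKO 1 (0.0998), cKO 2 (0.172), cKO 3 (0.543), control 1 (0.150) or control 3 (0.0670). Meg3 is known to stay largely in the nucleus. Malat1, another nuclear RNA, stood at 10927, 8713 and 17657 TPM in the cKO and at 6548, 9452 and 7776 TPM in the controls. It was highest in cKO 3, as Meg3 was. Among the other noncoding RNAs with separate groups, Kcnq1ot1 was also highest in cKO 3, at 55.5 CPM. Airn was the reverse, with 0 counts in every cKO library. The part of nuclear RNA in these differences was not tested. The noncoding neighbours of Meg3, Rian and Mirg, host small RNAs and are usually read from the same maternal copy. They did not show the Meg3 pattern. Rian had 9, 1 and 1 counts in the cKO and 317, 1 and 15 in the controls. Mirg had 0 in every cKO library and 1, 92 and 0 in the controls.

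Peg3 had 0, 170 and 73 counts in the cKO and 313, 279 and 370 in the controls, or 0, 12.6 and 5.36 CPM against 20.7, 20.4 and 23.6 CPM. The controls were close together and the cKO libraries lay below them and apart from one another (log2 difference -1.84 ± 1.802 (SE), edgeR adjusted p = 0.99999). The difference was -1.26 without cKO 1, which had no Peg3 count, and -3.01 without cKO 2. It was -3.02 with a replicate block and -4.01 with limma-voom. Kcnq1ot1, the noncoding RNA that silences Kcnq1 and Cdkn1c on the paternal copy, had 482, 372 and 755 counts in the cKO and 398, 351 and 421 in the controls. In CPM it stood at 34.9, 27.7 and 55.5 against 26.3, 25.6 and 26.9, so that cKO 2 was just above the controls. The log2 difference was 0.58 ± 0.55 (SE, edgeR), and 0.25 without cKO 3. Its transcript is very long, so these counts came to only 0.43 TPM on average, and Kcnq1, around it, was at 0.

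**Figure D4:**
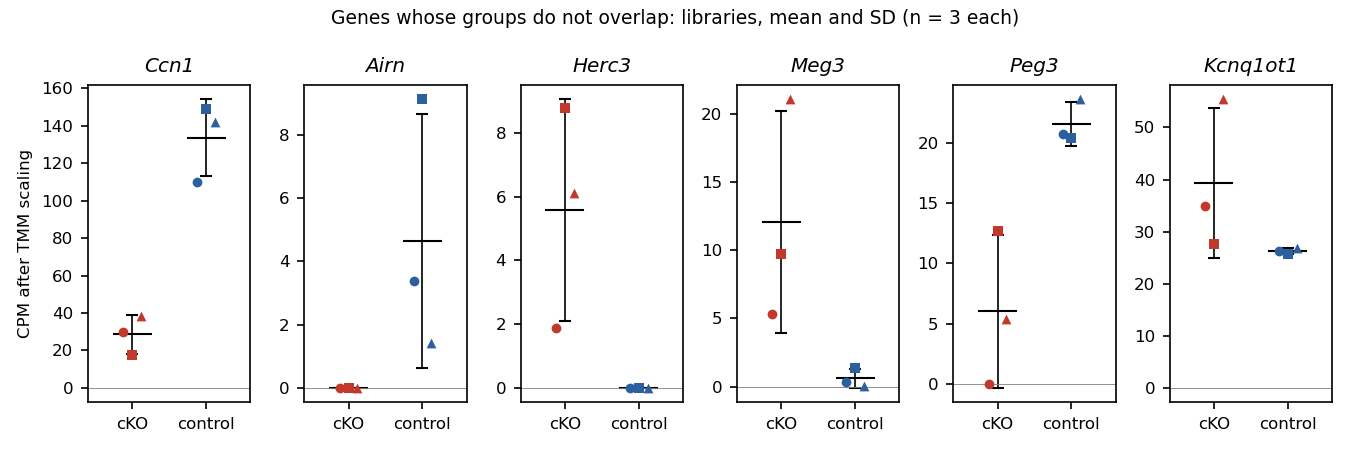
CPM after TMM scaling in each library for Ccn1 and the 5 imprinted genes whose groups do not overlap, with the mean (line) and SD (bar, n = 3 each). Airn and Peg3 are lower and Herc3, Meg3 and Kcnq1ot1 higher in all 3 cKO libraries.

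Genes that work with the imprinted genes, or are imprinted themselves, were taken from 3 lists, and edgeR called 0 of them too. Of 26 genes of the imprinting machinery, 19 reached 1 TPM and 19 were tested, 5 of them higher and 14 lower (median log2 difference -0.27), 0 at an unadjusted p under 0.05. The most abundant were Eed, a Polycomb subunit, at 39.0 ± 9.18 against 33.2 ± 11.8 TPM (SD, n = 3 each), Arid4b, a chromatin protein, at 14.9 ± 10.9 against 31.9 ± 8.47 TPM, and Trim28, the corepressor that ZFP57 recruits, at 14.2 ± 3.59 against 17.4 ± 17.4 TPM. Ctcf, the insulator protein of the H19-Igf2 locus, stood at 11.997 ± 2.67 against 6.85 ± 0.785 TPM, with separate groups. Dnmt1, the methyltransferase that keeps imprints through division, was low, at 1.5 TPM on average.

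Of 32 further imprinted genes outside the member list, 31 were found and 17 reached 1 TPM. Of the 13 tested, 10 were higher and 3 lower, with a median log2 difference of 0.12, and 0 had separate groups. Chrac1, a histone-fold protein gene beside Trappc9, led at 168 ± 72.7 against 163 ± 70.9 TPM. Next came Pon2, a paraoxonase gene, at 101 ± 35.2 against 94.6 ± 31.4 TPM, and Nap1l4 at 91.6 ± 10.05 against 72.9 ± 19.5 TPM. Casd1 stood at 33.2 ± 12.1 against 43.6 ± 9.84 TPM.

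Of 18 genes of the insulin-like growth factor axis, in which Igf2, Igf2r and Grb10 act, 13 were tested, 5 higher and 8 lower (median log2 difference -0.21). The most abundant was Igfbp2, a secreted binding protein, at 64.8 ± 21.6 against 75.7 ± 39.6 TPM. The groups were separate for 5 of the 13, 1 higher and 4 lower in the cKO. Of all genes 9.62% were separate, 4.99% higher and 4.62% lower. Among the lower ones, Igfbp7 stood at 11.7 ± 2.79 against 22.2 ± 4.30 TPM, and Ide, an insulin-degrading protease, at 3.38 ± 1.28 against 9.96 ± 3.29 TPM. Ide had an edgeR p of 0.0438 and did not pass over all genes (adjusted p = 0.99999). The growth factor gene Igf1 had 1 count in cKO 1, 1 in control 2 and 0 in the rest, and its receptor gene Igf1r stood at 2.48 TPM on average. Grb10, an adaptor that dampens this pathway, had 16, 19 and 58 counts in the cKO and 0, 197 and 2 in the controls.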

How the data were processed

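RNA was sequenced from 3 cKO and 3 control samples, grouped and numbered by their titles. The submitters' processing notes name CASAVA 1.8, cutadapt 1.11 and kallisto 0.42.5. Per the file headers, the deposited files give for each gene an estimated count, not normalized, and a TPM value. Any record of strand, build, annotation or the summing to genes is not given in the sources used here. TPM depends on transcript length, so TPM and counts can order low genes differently.

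Estimated counts were rounded, filtered by filterByExpr and scaled by TMM. The genotype was tested with the robust quasi-likelihood fit of edgeR 4.0.16 in R 4.3.3, over 11574 genes, with Benjamini-Hochberg adjustment and a threshold of 0.05. DESeq2 1.42.0, limma 3.58.1, other scalings and filters, a replicate block and leaving out each library were the alternatives. The tests were tested on simulated data. IDs were matched to GENCODE M21 without version (99.1%). The members and lists were chosen with earlier results of these data known. Named genes were members of at least 10 TPM, with an unadjusted p under 0.05, or with separate groups and at least 5 CPM, and from each companion list the 3 most abundant and the 2 of smallest p, of which 1 is not reported here. Other members were named after their values were seen.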

Additional observations from a re-analysis of the deposited data

How the results depend on the processing

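Ccn1 stayed lower at an unadjusted p under 0.05 in all 15 alternatives (log2 -2.27 with the replicate block, -2.50 to -1.97 without 1 library). Its adjusted p passed 0.05 with DESeq2 only. DESeq2 called 198 genes (110 higher, 88 lower) and 3 members (Airn, Herc3 and Meg3), and every setting of edgeR and limma, the block and edgeR without each library included, called 0 genes and 0 members. DESeq2 without 1 library, and the bounds for Airn and Herc3 without 1 library, were chosen after seeing the data. Separate groups were found for 5 members under each scaling and in TPM, and for 6 to 8 without 1 library. A level of at least 5 TPM was reached by 18 members, and by 29 to 32 at 1 TPM without 1 library. Small differences changed sign. Nnat stood at 0.0013 with limma-voom, 0.014 on log2(TPM + 1) and 0.014 on log2(TPM + 0.1), Impact at -0.078, -0.064 and -0.067 there and at -0.065 with the replicate block. Without 1 library the ranges were -0.085 to 0.056 for Nnat, -0.48 to 0.39 for Impact, -0.74 to 0.26 for Ndn, -0.80 to 0.11 for Cdkn1c, -0.17 to 0.73 for Nap1l5 and -0.022 to 0.45 for Tssc4. The cause was not tested. No named member outside these 6 changed sign. The replicate numbers were not taken to pair the samples: same-numbered samples had deviations correlated at 0.0082, 0.029 and 0.015, and the replicate block left the count of called genes at 0.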
